A study of Mus musculus with 12 samples.

Results

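The sarcomere and Z-disc genes described here are 32 structural genes of the contractile apparatus, apart from myosin heavy chains and troponins, and they were taken by symbol from 78317 gene rows of a read count table. All 32 had a row, and all 32 passed the filter on low counts. The table covered heart ventricle of 12 C57BL/6J mice that had not been injured themselves: 6 were sired by males given a freezing injury of the heart (cryoinjury) on postnatal day 1, and 6 by uninjured males. The labels put collection at 3 wpp and yet describe adult mice. They count 3 males and 3 females among injured-sire offspring and 4 males and 2 females among the rest, with no sex assigned to a given library. Since sires, litters and batches are also unlabelled, the p-values rest on the spread among these mice alone, and they would be too small if some were siblings. Replicate 16 of the injured-sire group, which the submitters left out as an outlier, was also left out of the comparison here, giving 5 injured-sire against 6 uninjured-sire libraries. The question behind the comparison is whether an early heart injury of the sire can be seen in cardiac RNA of the next generation.

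The sarcomere is the repeating contractile unit of striated muscle. Thick filaments of myosin are held at the M-band, thin filaments of actin are anchored in the Z-disc, and titin spans from one to the other and acts as a spring. Z-disc proteins and the desmin network around them join neighbouring myofibrils, carry force sideways and take part in sensing stretch, and many of these genes are known for inherited cardiomyopathy.

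None of the 32 genes differed between the groups at an adjusted p below 0.05 (edgeR quasi-likelihood test, adjusted over all 17130 genes tested), where 18 of all genes tested, or 0.105%, did, 0.0525% in each direction. Of the 32, 12 had a higher and 20 a lower fitted level in injured-sire offspring, a split that depends on how libraries are scaled. Their median log2 fold change was -0.02, in a range from -0.25 (Myot) to 0.18 (Tcap), while the median over all genes tested was 2e-04. At an unadjusted p below 0.05 there was 1 member, Cryab, against 8.96% of all genes tested; the DESeq2 Wald test likewise called 0 members and had 1 at an unadjusted p below 0.05. For every member the values of the groups overlapped, while the groups did not overlap for 1.06% of all genes tested, 0.432% with higher and 0.625% with lower injured-sire values.

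The intervals limit how large a difference these libraries leave room for. The 95% confidence interval of the difference lay within 1.5-fold in either direction for all 32 members, and for 10824 of the 17130 genes tested. That count depends on the fit: it was 29 with the clock score as a covariate (Ankrd1, Myom2 and Myot outside) and 30 to 32 in the other edgeR fits run, with Ankrd1, Myot or both outside where it was below 32. The median half-width of the interval was 0.131 on the log2 scale for the members and 0.262 for all genes tested. The intervals that came nearest to 1.5-fold, a log2 value of 0.58, were those of Myot, which reached -0.57, and Ankrd1, which reached 0.57. Since this is bulk tissue, fewer cells of a type and less RNA per cell cannot be told apart in any of these values.

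**Figure D1:**
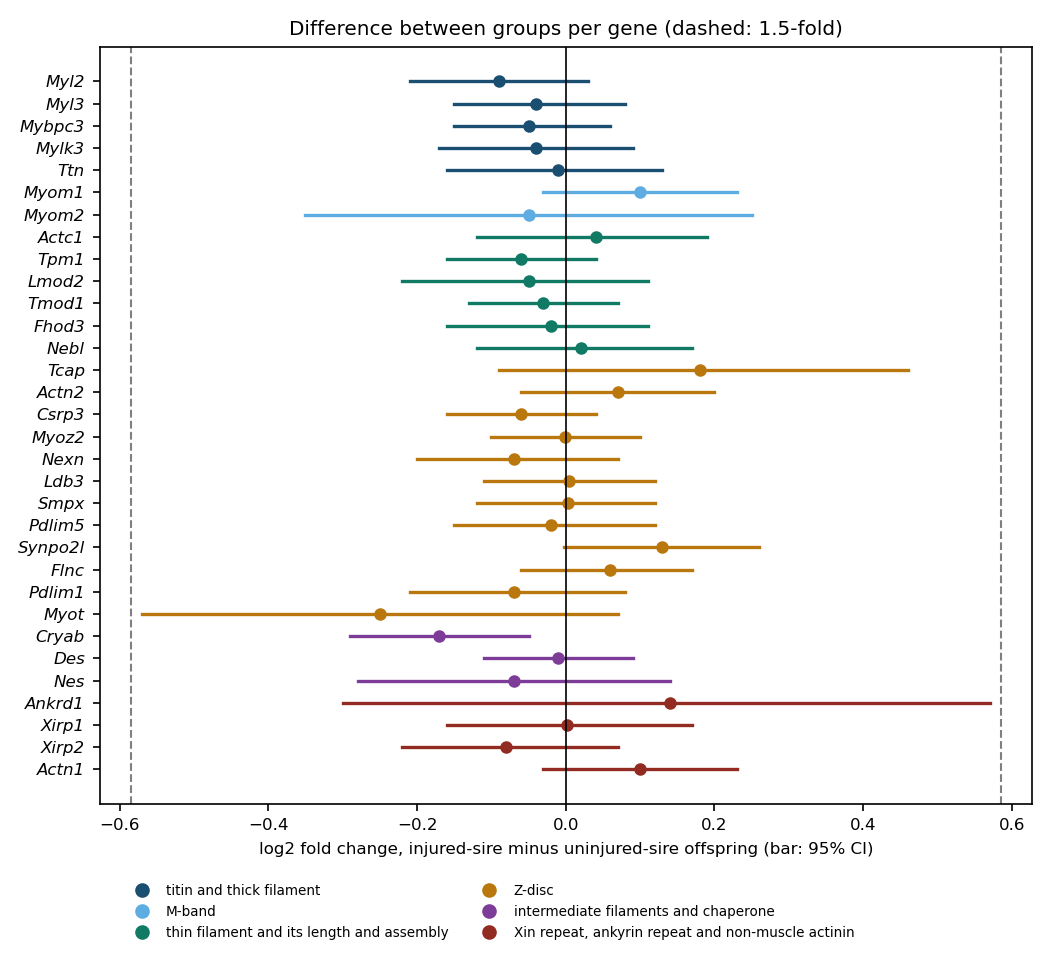
Log2 fold change of each of the 32 genes, injured-sire minus uninjured-sire offspring (x axis), with its 95% confidence interval as a bar and points coloured by role. In this fit the intervals lie inside the dashed lines at 1.5-fold, and the interval of Cryab, from -0.29 to -0.05, leaves out 0 although its adjusted p was 0.307.

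The 12 libraries held 30537315 to 42090257 counts, and the 32 members took 5.07% to 5.5% of the counts of each library. Levels below are CPM, a gene's counts per 1e+06 counts of its library, corrected for library composition. The 7 heart muscle markers on the list used to check the tissue, Myl2 among them, summed to between 70551 and 84524 CPM in the 11 libraries compared. Of the markers of other tissues, 7 of 8 smooth muscle genes had higher means in injured-sire offspring (0 called). Their sum ran from 1220 to 1311 CPM against 803 to 1157 CPM, with no overlap in these 11 libraries. Injured-sire replicate 16, left out of the comparison, had a sum of 1104 CPM, inside the uninjured-sire range. How often sums of other genes would not overlap was not counted. All 7 fat markers had higher means (0 called; sums of 174 to 549.7 against 48.8 to 429 CPM), as did all 5 tested of 6 airway markers (0 called; 34.5 to 559 against 0.435 to 339.9 CPM, with Scgb3a2, Sftpc, Bpifa1 and Foxj1 at 0 in some libraries). Skeletal muscle markers summed to 30.8 to 71.4 against 28.6 to 34.5 CPM, 7 of the 8 tested of 13 were higher (0 called), Myh1, Myh2, Myh4, Tnnc2 and Ampd1 were at 0 in some libraries, and injured-sire replicate 14 had the highest sum. Atrial (4 of 5 higher), endothelial (4 of 8) and fibroblast markers (3 of 6) had 0 called, and their sums overlapped between the groups. The endothelial gene Vwf alone did not overlap, at 128 to 164 against 109 to 127 CPM (log2 fold change 0.29, edgeR adjusted p = 0.101), as 1.06% of all genes tested did not. A circadian clock score was the mean of 9 genes such as Per1 and Dbp minus that of Arntl, Npas2 and Clock. It ran from 1.09 to 2.74 in injured-sire and from 0.14 to 1.85 in uninjured-sire offspring on the log2 scale. With the clock score as a covariate 23 members moved by more than 1 SE of the main fit, and with the airway and fat scores 9 did. How many of all genes moved so was not counted. The furthest interval bound of a member was 0.9 with the clock score and 0.87 with the airway and fat scores, against 0.57 with no covariate. Those fits are given below for genes described per library whose value they turned in direction or moved by over 1.5 times, and the part of the other signals was not tested.

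The levels of the members set the scale of the differences. Between genes they are compared per length, as TPM (counts per base of exon, scaled to the same total in each library), over the summed exons of all annotated isoforms, in uninjured-sire offspring (SD, n = 6). Actc1, the cardiac alpha-actin of the thin filament, was highest at 12963 ± 1299 TPM. The ventricular myosin light chains followed, with Myl2, the regulatory chain, at 6822 ± 239.7 TPM and Myl3, the essential chain, at 5665 ± 226 TPM, and then Tpm1, the tropomyosin that lies along actin, at 3859 ± 111 TPM. These 4 neighbours lay apart by more than their SDs.

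Mybpc3, the cardiac myosin-binding protein C, at 2027 ± 114 TPM, and Tcap, the titin cap protein telethonin, at 1946 ± 329 TPM, did not lie apart beyond their spread. Cryab at 1491 ± 76.9 TPM and Actn2 at 1393 ± 88.6 TPM did not either. Des, the muscle intermediate filament desmin, stood at 1239 ± 58.5 TPM.

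Ttn came to 115 ± 13.1 TPM over 117334 bp, the summed exons of all its isoforms, and the value would be higher over a shorter transcript. The lowest member was Myot at 12.0 ± 1.67 TPM, below Nes at 19.1 ± 2.72, Pdlim1 at 22.5 ± 1.52 and Actn1 at 25.3 ± 2.16 TPM. Reads that map to several genes were not counted, so Actc1, whose coding sequence is close to that of the other muscle actins, is uncertain in level.

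Promoter sequence is shown for 3 members because they mark the ends of what the counts show: Actc1 has the highest level, Ttn encodes the largest protein, and Ankrd1 varied most between animals. RefSeq promoters on build GRCm38.p6, which is not the build of the counts, were matched by symbol for 25 of the 32 members, with 35 entries since some genes have several starts. Each window is the 250 bases before the annotated start, read on the gene's strand. Capitals mark a CArG box, the site bound by serum response factor, in Actc1 (chr2:114052876-114053125, minus strand), a MEF2 site in Ttn (chr2:76982548-76982797, minus strand) and GGAATG, the reverse complement of the M-CAT core CATTCC, in Ankrd1 (chr19:36119845-36120094, minus strand).
Actc1: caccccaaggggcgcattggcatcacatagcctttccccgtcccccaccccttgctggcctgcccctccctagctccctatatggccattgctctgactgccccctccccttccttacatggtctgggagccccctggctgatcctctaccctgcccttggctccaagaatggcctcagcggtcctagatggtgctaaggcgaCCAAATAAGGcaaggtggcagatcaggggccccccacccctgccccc
Ttn: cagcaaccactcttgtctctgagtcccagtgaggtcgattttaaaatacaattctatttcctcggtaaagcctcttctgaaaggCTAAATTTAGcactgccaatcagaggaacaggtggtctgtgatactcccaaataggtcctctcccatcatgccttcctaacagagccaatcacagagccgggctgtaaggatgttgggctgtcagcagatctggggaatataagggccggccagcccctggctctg
Ankrd1: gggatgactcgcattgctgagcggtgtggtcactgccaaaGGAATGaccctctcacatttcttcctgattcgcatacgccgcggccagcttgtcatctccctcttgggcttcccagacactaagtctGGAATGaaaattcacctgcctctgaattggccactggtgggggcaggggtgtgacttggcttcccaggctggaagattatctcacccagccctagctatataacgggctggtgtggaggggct
Searched on both strands in windows of the same length, a CArG box occurred in 17.1% of the members' entries (Actc1, Ldb3, Myl3, Myom1 and Nebl) and in 1.47% of 32851 promoters. A MEF2 site occurred in 17.1% (Mybpc3, Myoz2, Synpo2l, Ttn and Xirp2) against 2.92%, CATTCC in 20% (Ankrd1, Flnc, Myl3, Mylk3, Nebl, Tmod1 and Tpm1) against 12.6%, and the E-box CACGTG in 2.86% (Actn2) against 6.02%. The entries of 1 gene can share a window, as those of Ldb3 do, and a match describes letters, not binding.

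In the thick filament and titin group, all 5 members had lower means in injured-sire offspring, at a median log2 fold change of -0.04, none past the threshold. Higher and lower means refer to the CPM scale here and below. In TPM, which lack the CPM correction for library composition, only Myl2 was lower, at 6645 against 6822. Ttn read 118 against 115 TPM, Mybpc3 2032 against 2027, Myl3 5724 against 5665 and Mylk3 412 against 409. Myl2 (chromosome 5, 122239014 to 122251535, GRCm39, as are all gene positions below) read 4897, 4469, 4381, 4789 and 5402 CPM in the injured-sire libraries, replicates 12, 13, 14, 15 and 17 in that order here and below. Uninjured-sire libraries ran from 4714 through a median of 5089 to 5479 CPM. The lowest 2 libraries for Myl2 were injured-sire ones, yet replicate 17 of that group lay near the top of the other. The log2 fold change of Myl2 was -0.09 ± 0.0561 (SE), with an interval of -0.21 to 0.03 and an edgeR adjusted p of 0.693. It was -0.14 without injured-sire replicate 17, -0.01 with all 12 libraries and 0.05 with the clock score as a covariate.

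Ttn (chromosome 2, 76534324 to 76812891) read 5411, 4811, 5370.2, 4726 and 5287 CPM in injured-sire libraries and 4564 to 5989 CPM, with a median of 5000.2, in uninjured-sire libraries. The injured-sire values of Ttn lay inside the range of the other group, and the log2 fold change was -0.01 ± 0.0702 (edgeR adjusted p = 0.979). It was 0.08 with the clock score and 0.13 with the airway and fat scores as covariates. The other members of this group were Mybpc3 at 3124 ± 95.3 against 3230.3 ± 214 CPM (SD, n = 5 and 6), Myl3 at 4322 ± 344 against 4432 ± 209 CPM, and Mylk3, the cardiac myosin light chain kinase that phosphorylates the regulatory chain, at 652 ± 40.8 against 669 ± 63.7 CPM. Their log2 fold changes lay between -0.05 and -0.04, and that of Mylk3 was 0.09 with the airway and fat scores. With the clock score, Mybpc3 had 0.07 and Myl3 0.13, while Mylk3 had -0.05.

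The M-band is held by the myomesins, and its pair of members leaned to opposite sides. Myom1 (chromosome 17, 71309628 to 71433851) read 2100.1, 2006, 1903, 1898 and 2263 CPM in injured-sire libraries against 1743 to 2149 CPM, with a median of 1836, in uninjured-sire libraries. Every injured-sire value of Myom1 exceeded the uninjured-sire median, while replicates 19 and 20 of the uninjured-sire group, at 2149 and 2083 CPM, reached into the upper part of the injured-sire range. The log2 fold change was 0.10 ± 0.0621, with an interval of -0.03 to 0.23 and an edgeR adjusted p of 0.697. It was 0.06 without injured-sire replicate 17, 0.28 with the clock score and 0.19 with the airway and fat scores. Myom2, the second myomesin, read 1684, 1518, 1415, 1229 and 1475 CPM against 1241 to 2011 CPM, with a median of 1422. The highest value of Myom2 belonged to uninjured-sire replicate 22, and the log2 fold change of -0.05 ± 0.135 turned to 0.05 without it. It was -0.26 with the clock score and 0.13 with the airway and fat scores.

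Among the 6 genes of the thin filament and its assembly, 2 had higher and 4 lower means at a median log2 fold change of -0.03. Tpm1 (chromosome 9, 66929872 to 66956688) read 8671, 9279.9, 8789.6, 9375 and 9809.6 CPM in injured-sire libraries against 9125 to 10133 CPM, with a median of 9567. Replicates 12 and 14 lay below all uninjured-sire libraries and the other 3 inside their range. Tpm1 had a log2 fold change of -0.06 ± 0.047, with an interval of -0.16 to 0.04 and an edgeR adjusted p of 0.774. It was -7e-04 with all 12 libraries and 0.05 with the clock score.

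Actc1 (chromosome 2, 113877763 to 113884029) read 8249, 8074, 7795, 8150.1 and 8983 CPM against 6662 to 9291 CPM, with a median of 7864. Its uninjured-sire libraries spread more widely, with an SD of 1038 CPM against 443 CPM, and the log2 fold change was 0.04 ± 0.0732, which was 0.25 with the clock score and -0.01 without uninjured-sire replicate 22. Tmod1, the tropomodulin that caps the pointed end of the thin filament, was the steadiest member at 499.6 ± 16 against 509 ± 21.8 CPM. Lmod2, the leiomodin that lengthens thin filaments from the same end, stood at 595 ± 56.6 against 618 ± 76 CPM. Fhod3, a formin of sarcomere assembly, stood at 436 ± 45.9 against 443 ± 30.6 CPM, and Nebl, the cardiac nebulin relative nebulette, at 416 ± 19 against 409 ± 50.7 CPM. The log2 fold change of Nebl, 0.02, was 0.18 with the airway and fat scores and -0.08 with the clock score.

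The Z-disc was the largest group, with 12 genes, of which 6 had higher and 6 lower means. Their median log2 fold change was 9e-04, with none at an unadjusted p below 0.05. Synpo2l, a synaptopodin relative that binds alpha-actinin, came nearest to that limit. Synpo2l (chromosome 14, 20709014 to 20718422) read 182, 169, 168, 153 and 181 CPM in injured-sire libraries and 137 to 179 CPM, with a median of 154, in uninjured-sire libraries. Replicates 12 and 17 exceeded all uninjured-sire libraries, and replicate 15 lay below the uninjured-sire median. For Synpo2l this gave a log2 fold change of 0.13 ± 0.0644, with an interval of -0.003 to 0.26 (edgeR adjusted p = 0.572).

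Actn2, the sarcomeric alpha-actinin that crosslinks actin at the Z-disc (chromosome 13, 12284312 to 12355641), read 2221, 2087, 1969.7, 1987 and 2371 CPM against 1796 to 2186 CPM, with a median of 2070.1. Overlap was broad, since 2 of the 5 injured-sire values of Actn2 lay below that median, and the log2 fold change was 0.07 ± 0.0618 (edgeR adjusted p = 0.805). It was 0.03 without injured-sire replicate 17, 0.04 without uninjured-sire replicate 22, 0.27 with the clock score and 0.13 with the airway and fat scores. Csrp3, the muscle LIM protein (chromosome 7, 48480146 to 48497781), read 839.9, 826, 792, 879 and 909 CPM against 851 to 923 CPM, with a median of 887. Replicates 12, 13 and 14 lay below the uninjured-sire range and the other 2 inside it, and the log2 fold change of Csrp3 was -0.06 ± 0.0478 (edgeR adjusted p = 0.778) and 0.03 with the clock score.

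Tcap and Myot had the largest differences of the Z-disc group and also wide spreads. Tcap, which joins the ends of titin in the Z-disc (chromosome 11, 98274637 to 98275779), read 673, 816, 886, 947 and 677 CPM in injured-sire libraries against 598 to 903 CPM, with a median of 695. Replicates 13, 14 and 15 were high, while 12 and 17 lay below that median. Tcap thus had a log2 fold change of 0.18 ± 0.124, with an interval of -0.09 to 0.46 (edgeR adjusted p = 0.738). It was 0.11 without injured-sire replicate 15, 0.27 without uninjured-sire replicate 22, and -0.20 (adjusted p = 0.927) with the clock score and 0.07 with the airway and fat scores as covariates.

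Myot, myotilin, an actin-binding Z-disc protein (chromosome 18, 44467141 to 44488791), read 7.72, 9.66, 5.59, 8.62 and 11.3 CPM against 8.46 to 11.8 CPM, with a median of 10.2. Replicates 12 and 14 lay below the uninjured-sire range and replicate 17 near its top. For Myot the log2 fold change was -0.25 ± 0.154, with an interval of -0.57 to 0.07 (edgeR adjusted p = 0.683). It was -0.13 without injured-sire replicate 14, -0.37 without injured-sire replicate 17, -0.16 with the airway and fat scores, and 0.19 (adjusted p = 0.961) with the clock score.

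The other 7 Z-disc genes had log2 fold changes between -0.07 and 0.06. Flnc, filamin C, stood at 303 ± 20.9 against 292 ± 18.1 CPM, and Nexn, the actin-binding nexilin, at 712 ± 41 against 744 ± 73.8 CPM. Ldb3, the PDZ and LIM protein also called Cypher, was level at 892 ± 72.1 against 889 ± 38.5 CPM, as was Myoz2, the calcineurin-binding calsarcin, at 1045 ± 45.3 against 1046 ± 46.4 CPM. Smpx, a small X-linked muscle protein, stood at 225 ± 15.5 against 225 ± 13.3 CPM. The PDZ and LIM genes Pdlim5 and Pdlim1 stood at 539 ± 37.8 against 546 ± 50 CPM and at 43.3 ± 2.87 against 45.3 ± 3.87 CPM.

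The gene with the smallest p of all members was Cryab, which encodes alpha-B-crystallin, a small heat shock protein that binds desmin and titin. Cryab (chromosome 9, 50662625 to 50667936) read 738, 718, 700.2, 848 and 742 CPM in injured-sire libraries and 893, 868, 844, 874, 754 and 831 CPM in uninjured-sire replicates 18 to 23. Replicates 12, 13, 14 and 17 of the injured-sire group lay below every uninjured-sire library, and replicate 15 lay among them. The means were 749 ± 57.7 and 844 ± 49.4 CPM, with a log2 fold change of -0.17 ± 0.0564, an interval of -0.29 to -0.05, an unadjusted p of 0.00605 and an edgeR adjusted p of 0.307.

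Cryab therefore missed the threshold, and the DESeq2 Wald test gave it an adjusted p of 0.147. Its log2 fold change was lowest at -0.22 without injured-sire replicate 15 (adjusted p = 0.159) and highest at -0.05 with the clock score as a covariate (adjusted p = 0.982). With no filter on low counts, over 38125 genes, it was -0.19 with an adjusted p of 0.0364. Replicate 16, left out of the comparison, read 887 CPM on a scale set over all 12 libraries, and with it the log2 fold change was -0.13 (adjusted p = 0.64).

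Des, desmin, which Cryab binds, stood at 1769 ± 68.4 against 1779.9 ± 83.5 CPM and had a log2 fold change of -0.01 ± 0.0477. Nes, the intermediate filament protein nestin, read at a low level of 44.7 ± 6.83 against 46.9 ± 5.92 CPM. All 3 genes of this group thus had lower means in CPM, with only Cryab at an unadjusted p below 0.05. In TPM, Des had a higher injured-sire mean, at 1276 against 1239.

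The last group holds the Xin actin-binding repeat genes, the ankyrin repeat gene Ankrd1 and the non-muscle alpha-actinin gene Actn1, of which 3 had higher and 1 a lower mean. Actn1 (chromosome 12, 80214321 to 80307145) read 58.1, 54.4, 59.9, 56.2 and 59.2 CPM in injured-sire libraries against 45.6 to 56.3 CPM, with a median of 55.1. Replicates 12, 14 and 17 exceeded all uninjured-sire libraries, but 5 of the 6 uninjured-sire values lay within 53.7 to 56.3 CPM. The log2 fold change was 0.10 ± 0.0619 (edgeR adjusted p = 0.673), and it was 0.06 without the low uninjured-sire replicate 20, as it was with the clock score and with the airway and fat scores. Smooth muscle and other non-cardiomyocyte cells are known to use Actn1. The sum of smooth muscle markers given above did not overlap between the groups in the 11 libraries compared, but did with replicate 16. Its part in the Actn1 value was not tested.

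Ankrd1, a stretch-responsive protein that binds titin and also enters the nucleus (chromosome 19, 36089361 to 36097499), read 569.7, 579, 574, 533 and 342 CPM in injured-sire libraries. Uninjured-sire libraries read 335, 457, 495, 469, 669.6 and 415 CPM. The injured-sire values of Ankrd1 were close together apart from replicate 17, and the highest and the lowest of the 11 were both uninjured-sire ones. The log2 fold change was 0.14 ± 0.192, with an interval of -0.30 to 0.57 and an edgeR adjusted p of 0.900. It was 0.26 without uninjured-sire replicate 22, 0.25 without injured-sire replicate 17, 0.05 without uninjured-sire replicate 18, and -0.51 (adjusted p = 0.777) with the clock score as a covariate. Xirp1 stood at 243 ± 30.1 against 243 ± 25.3 CPM and Xirp2 at 301 ± 25.1 against 317 ± 33.1 CPM.

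**Figure D2:**
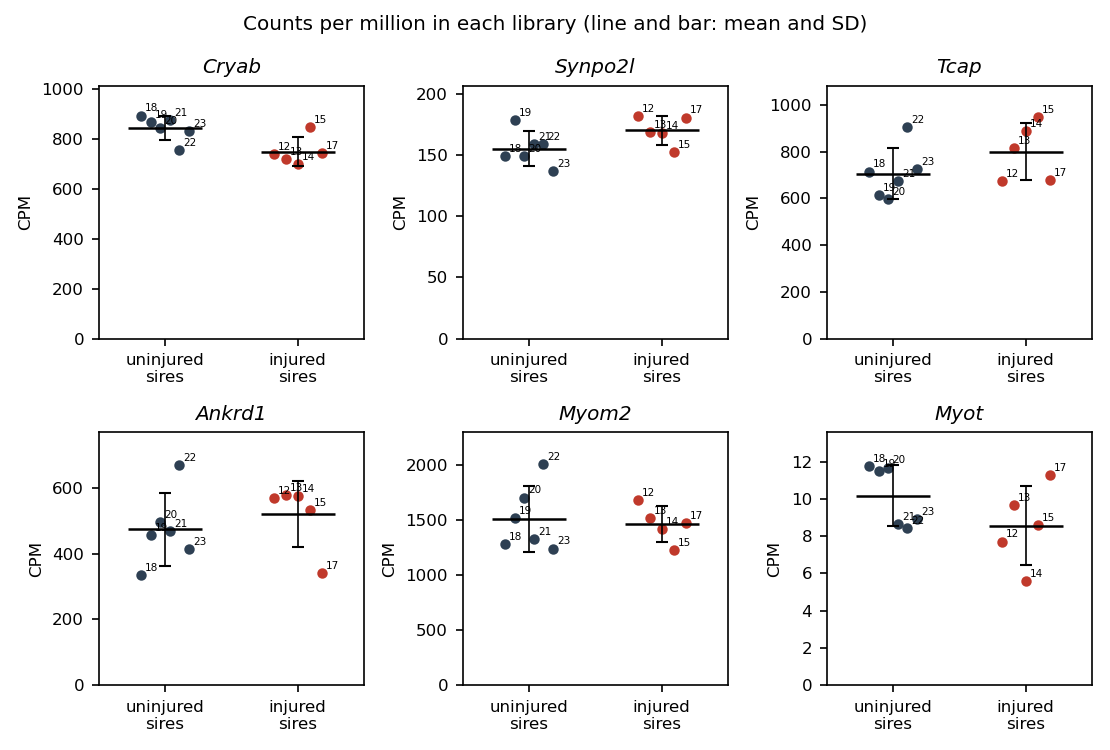
CPM of 6 of the genes in each library, with uninjured-sire libraries on the left and injured-sire libraries on the right of each panel, axes starting at 0, and the mean and SD drawn beside the points. The groups overlap in each panel, and injured-sire replicate 17 stands low for Ankrd1 at 342 CPM.

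The members differed in how much they varied between animals. Over the 11 libraries the coefficient of variation was 21.1% for Ankrd1, 20.9% for Myot, 16.1% for Tcap, 15.9% for Myom2 and 13.4% for Nes, with a highest value 2 times the lowest for Ankrd1 and 2.12 times for Myot. At the other end, Tmod1 varied by 3.79%, Des by 4.14%, Myoz2 by 4.17%, Csrp3 by 4.47% and Tpm1 by 4.58%. The median over the members was 8.24%, below the 14.7% of all genes tested. The 28 members with a mean of at least 100 CPM also had a median of 8.24%, while all 1458 genes tested at that level had a median of 6.71%.

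The members also moved by library. Uninjured-sire replicate 19 held the highest value of 8 of the 32 members and the lowest of 0, and the median member lay 0.12 above its mean there on the log2 scale. Injured-sire replicate 14 and uninjured-sire replicate 22 each held the lowest value of 7 members, and the median member deviated by -0.07 and -0.04. Median deviations ran from -0.07 to 0.06 in injured-sire and from -0.06 to 0.12 in uninjured-sire libraries, so they overlapped.

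**Figure D3:**
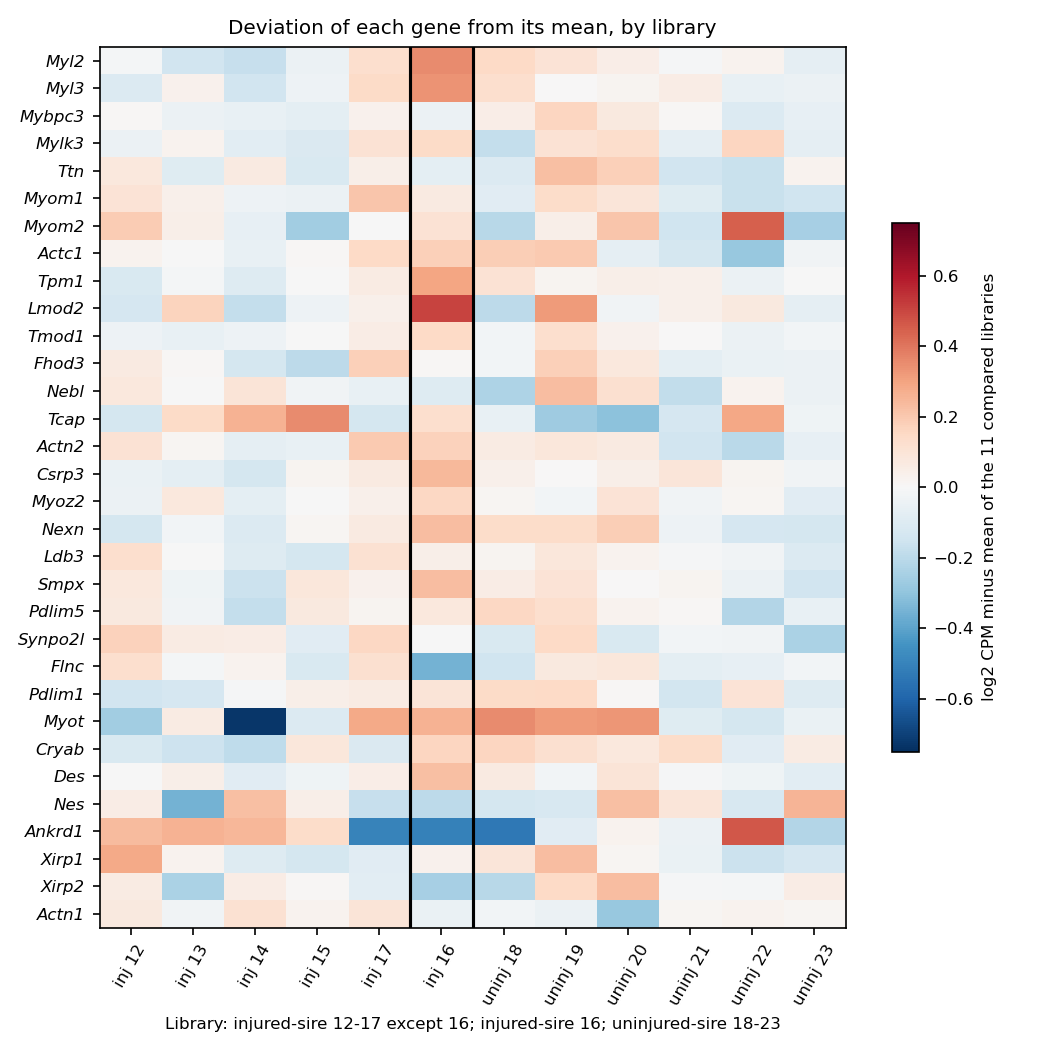
Deviation of each gene in each library from its mean over the 11 compared libraries, in log2 CPM, with rows for the 32 genes and columns for the libraries, replicate 16 apart from the others. Columns differ within each group, and replicate 16 runs high for Lmod2 (0.51) and low for Ankrd1 (-0.51).

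Replicate 16 was described against the other 11 libraries, with no test. Of the 32 members, 11 lay above the range of the 11 and 2 below it. How many of all genes lay outside that range was not counted, so these counts cannot be read as particular to the members. Above were Lmod2 (a log2 difference of 0.51 from the mean of the others), Myl2 (0.36), Myl3 (0.34), Tpm1 (0.29), Csrp3 (0.25), Des, Smpx and Nexn (0.23 each), Cryab and Myoz2 (0.16 each) and Tmod1 (0.15). Below were Flnc (-0.35) and Xirp2 (-0.25). Ankrd1, at -0.51, was low but within the range of the others. With replicate 16 included, 16 members had higher and 16 lower means, the median log2 fold change was -8e-05, and 0 members were called.

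Ratios of partner genes within a library do not depend on how libraries are scaled, and 8 were compared per length by an exact two-sided permutation test over the libraries, for which the smallest possible p is 0.00216. None of the 8 passed the threshold (exact test, adjusted p = 0.777 for each). Myom2 to Myom1 had mean log2 ratios of -0.24 ± 0.137 in injured-sire and -0.11 ± 0.284 in uninjured-sire offspring (exact p = 0.452). Their difference of -0.13 was -0.02 without uninjured-sire replicate 22. Myl3 to Myl2 stood at -0.22 ± 0.0956 against -0.27 ± 0.0618 (exact p = 0.31).

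Among actin and its caps, Acta1, the skeletal alpha-actin that the fetal and the loaded heart also uses, stood at -6.55 ± 0.407 against -6.44 ± 0.36 relative to Actc1 (exact p = 0.639), a linear ratio of 0.0107 against 0.0116. Lmod2 to Tmod1 had a linear ratio of 2.37 against 2.41 and a log2 difference of -0.02 (exact p = 0.777), and replicate 16 had a log2 ratio of 1.62, above the highest of the 11, 1.48. Actn1 to Actn2 stood at -5.75 ± 0.113 against -5.78 ± 0.213 (exact p = 0.764), a linear ratio of 0.0186 against 0.0182. The differences of the remaining ratios were -0.07 for Xirp2 to Xirp1 (exact p = 0.552), 0.05 for Pdlim5 to Pdlim1 (exact p = 0.617) and -0.06 for Nes to Des (exact p = 0.665). Replicate 16 also lay below the lowest of the 11 for Acta1 to Actc1 (-7.37 against -7.24) and for Nes to Des (-6.48 against -6.45).

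**Figure D4:**
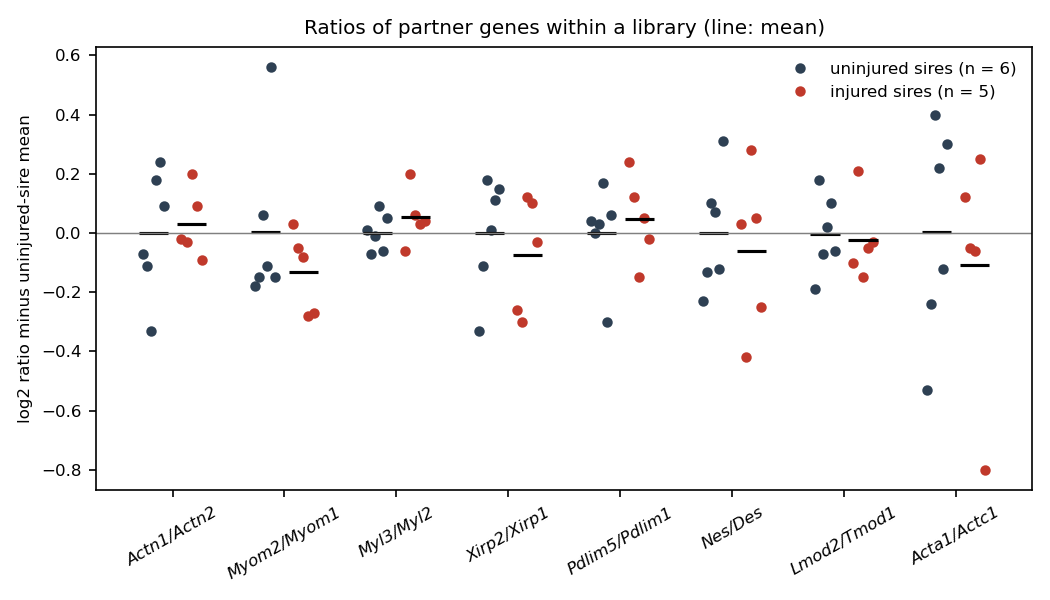
Log2 ratio of 8 gene pairs within each library, shown as the difference from the mean of uninjured-sire offspring, with points for libraries and lines for group means. The groups overlap for each pair, and the largest difference of means is -0.13, for Myom2 to Myom1, which is -0.02 without uninjured-sire replicate 22.

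The other sarcomere and Z-disc genes, a list of 58 that includes the heavy chains and troponins, gave these counts: 54 were tested, 22 had higher and 32 lower means, 0 were called by edgeR or DESeq2, and the median log2 fold change was -0.02. At an unadjusted p below 0.05 there were 7, or 13%, all with higher means in injured-sire offspring. Of all genes tested, 8.96% had such a p, 733 with higher and 801 with lower means. The 5 with the smallest p were Mybphl, an atrial relative of myosin-binding protein H (log2 fold change 0.19 ± 0.0611, adjusted p = 0.304), Tpm2, the second tropomyosin of muscle (0.43 ± 0.142, 0.386), Pdlim3 (0.24 ± 0.0892, 0.393), Tmod2 (0.25 ± 0.108, 0.489) and Csrp2, a LIM protein of smooth muscle (0.21 ± 0.0891, 0.494). Tpm2 stood at 76.1 ± 6.24 against 56.7 ± 12.5 CPM, and smooth muscle is known for it. The smooth muscle marker sum did not overlap between the groups in the 11 libraries compared, but did with replicate 16. Its part in the Tpm2 value was not tested.

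Of the main motor and regulatory genes, Myh6, the adult heavy chain of the mouse ventricle, stood at 38162 ± 3391 against 35401 ± 2452 CPM (log2 fold change 0.11 ± 0.0595, edgeR adjusted p = 0.623), and Myh7, the fetal one in the mouse, at 54.1 ± 5.62 against 55.2 ± 23 CPM. The interval of Myh7, -0.63 to 0.57, passed 1.5-fold, and its log2 fold change of -0.03 was 0.21 without uninjured-sire replicate 22, which had 97.9 CPM, and -0.17 without replicate 20. The log2 fold changes were -0.04 for Tnnt2, -0.05 for Tnni3, -0.06 for Acta1 and 0.04 for Nrap, each with an edgeR adjusted p of at least 0.848.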

How the data were processed

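The authors deposited raw counts of reads per gene, made with featureCounts 2.1.1 (strand setting 2, no paired-end option, multi-mapping reads not counted) on the GRCm39 annotation of Ensembl release 114, per the file headers. STAR 2.7.10a and Subread 2.0.3 are named in the submitters' processing notes. Symbols came from GENCODE names for 51487 of 78317 IDs, which took 99.3% of counts. Another 11 sample columns were not used. In R 4.3.3, edgeR 4.0.16 was run on 5 against 6 libraries using TMM factors, a two-sided robust quasi-likelihood test, and Benjamini-Hochberg adjustment at 0.05 over the 17130 genes that passed filterByExpr (at least 10 counts, 15 in total). SEs come from the F statistic. Values per library are CPM after TMM scaling, and TPM use the file's exon lengths without it. Ratios add 0.5 counts. Alternatives were all 12 libraries, each library left out, other scalings and filters, covariates for sex-linked genes, clock, airway and fat scores, no mitochondrial genes, a threshold of 0.1, another prior count in the ratios, and DESeq2 1.42.0, which gave 3986 genes no adjusted p. All 32 members are named. Injured-sire values per library are given for the 10 with the smallest p, and also for Ttn, Actc1, Ankrd1 and Myom2, chosen after their values were seen. For these genes all uninjured-sire values are given for Cryab and Ankrd1, and a range and median for the rest. Of the other sarcomere genes, the 5 with the smallest p and 7 fixed ones were to be named, of which 1 is not reported here. Members and lists were chosen with earlier results of these data known. The steps were tested on simulated counts. Depths were 30537315 to 42090257 counts, at which the median interval half-width over all genes was 0.262 on the log2 scale.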

Additional observations from a re-analysis of the deposited data

Results flagged for a closer look

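In each of 80 groups (the 32 genes and 8 ratios, in each group of animals) the extreme library was compared with the others by Dixon's gap ratio, and 5 stood apart, where chance gives about 5% of groups. Injured-sire replicate 15 had 848 CPM of Cryab, above the 700.2 to 742 CPM of the other 4. Injured-sire replicate 17 had 342 CPM of Ankrd1, below the 533 to 579 CPM of the others. Uninjured-sire replicate 20 had 45.6 CPM of Actn1, below 53.7 to 56.3 CPM. Uninjured-sire replicate 22 stood apart in a pair of ratios, with a log2 ratio of Myom2 to Myom1 of 0.45 (others -0.29 to -0.05) and of Pdlim5 to Pdlim1 of 2.54 (others 2.84 to 3.01).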

How the results depend on the processing

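No paired analysis was possible because the labels give no sire, litter or batch that could pair animals across the groups. With no filter on low counts (38125 genes tested), 1 member was called, Cryab, lower, and 1 other sarcomere gene, Tpm2, higher (0.41, adjusted p = 0.0467); in the remaining settings run 0 were called of either list. Over 704 combinations of member and setting, the log2 fold change turned sign in 87, none of a called value. It moved by more than 1 SE of the main fit without a change of call in 39, of which 23 were with the clock score as a covariate. With that covariate 22 members had higher means, the median was 0.07, and 4 had an unadjusted edgeR p below 0.05 (smallest adjusted p = 0.602). The airway and fat scores gave 19 higher, a median of 0.03 and 5 at that unadjusted p (smallest edgeR adjusted p = 0.276). The share of all genes at that p was not counted in these covariate fits. In the edgeR fits, scaling moved the count of higher members from 9 (upper-quartile factors) to 15 (no scaling factor). In TPM, some members with lower CPM means had higher injured-sire means, such as Des (1276 against 1239) and Tmod1 (343 against 337). Others stayed lower, such as Cryab (1371 against 1491), and the split in TPM was not counted. Genes called over all tested, 9 higher and 9 lower, were 97 and 139 with no filter, 71 and 59 by the DESeq2 Wald test, 26 and 23 at a threshold of 0.1, 0 and 0 with the clock score, and 15 and 4 with airway and fat scores; higher calls were 17 with no scaling factor and 15 with 1 CPM in 5 libraries. Leaving out libraries gave 4 to 25 higher and 4 to 18 lower calls, the most without uninjured-sire replicate 22 and the fewest without injured-sire replicates 13 and 14 or uninjured-sire replicate 23 (4 or 5 in each direction); without injured-sire replicate 12 there were 16 lower calls. The differences in ratios ran, with a library left out, from -0.03 to 0.08 for Actn1 to Actn2, -0.01 to 0.10 for Pdlim5 to Pdlim1, -0.15 to 0.03 for Nes to Des, -0.08 to 0.01 for Lmod2 to Tmod1, -0.22 to 0.06 for Acta1 to Actc1, -0.17 to -0.02 for Myom2 to Myom1 (nearest 0 without uninjured-sire replicate 22), -0.14 to -0.02 for Xirp2 to Xirp1 (the ends without uninjured-sire replicate 18 and injured-sire replicate 13) and 0.02 to 0.08 for Myl3 to Myl2 (without injured-sire replicates 13 and 12); with all 12 libraries they were -0.01 for Actn1 to Actn2 and 0.04 for Lmod2 to Tmod1. The cause was not tested.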
